A study of Mus musculus with 2 samples.

Results

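Tmprss12, Kcnn4, Cntfr, Unc13d and Traf3ip2 were the 5 protein-coding mouse genes with the highest level of HC/CH, the CpG states with 5-hydroxymethylcytosine (hmC) on 1 DNA strand and unmodified cytosine (C) on the other. They were chosen by this measured level over the gene span, in the replicate where it was lower, among 11242 ranked genes of 21938 annotated protein-coding genes. A gene was ranked if it held at least 50 covered CpG sites in each replicate. The data came from SCoTCH-seq, which keeps the strands of a DNA fragment together and reads C, 5-methylcytosine (mC) and hmC on each of them. Genomic DNA was taken from E14 mouse embryonic stem cells (mESCs), an established cell line, grown on gelatin in serum with LIF, and the labels name no treatment. There were 2 replicates, prepared from different passages of this line, and no second condition.

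In mammalian cells, Tet enzymes oxidise mC to hmC, which can be a step towards the loss of methylation or a mark that persists. A CpG is read the same way on both strands, so that each strand can carry its own form of cytosine. The combination is called a CpG state and written with the plus strand first, as C, M (mC) or H (hmC). HC and CH thus differ only in which strand holds hmC, while HM/MH pairs hmC with mC and HH carries hmC on both strands.

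The 5 genes have different roles. Tmprss12 encodes a membrane serine protease with a role in male fertility, Kcnn4 a calcium-activated potassium channel, and Cntfr the subunit of the ciliary neurotrophic factor receptor that binds the ligand. Traf3ip2 encodes Act1, the adaptor that links interleukin-17 receptors to downstream signalling, and Unc13d encodes Munc13-4, which readies secretory granules for release. Expression was not measured in these samples.

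Replicate 1 covered 13676795 CpG sites at a median of 10 calls per site, and replicate 2 covered 4918612 sites at a median of 6 calls. The promoters of 6 genes that mark pluripotent stem cells (Pou5f1, Nanog, Sox2, Klf4, Esrrb and Zfp42) were mostly in the unmodified CC state. Its level in replicate 1 ran from 78.5% at Esrrb to 99.8% at Sox2. The median promoter of the ranked genes had 79.5% there, more than Esrrb. In the spike-in duplexes, 3.49% of calls at hemimethylated sites were HC or CH in replicate 1 and 0.618% in replicate 2. Methylated lambda DNA gave HC or CH in 0.153% and 0.0863% of calls. Calls of HM or MH made up 4.51% and 0.467% at fully methylated duplex sites and 3.88% and 0.340% on lambda DNA. This error applies only to the part of the calls that is fully methylated. At duplex sites designed as HC or CH, 1.12% and 4.02% of calls were HM or MH. In replicate 1, HM/MH of the 5 genes was 4.97% to 7.02% as called and 2.67% to 4.74% after correction with the spike-ins.

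A level here is the mean over CpG sites of the percentage of calls in a state, as called. For Tmprss12 it was 10.5% in replicate 1 (122 sites) and 9.57% in replicate 2 (57 sites). Kcnn4 followed with 9.45% (172 sites) and 10.1% (54 sites), and Cntfr with 9.30% (253 sites) and 9.81% (88 sites). Unc13d had 9.23% (187 sites) and 10.2% (73 sites), and Traf3ip2 had 9.09% (393 sites) and 8.97% (129 sites). The medians over all ranked genes were 4.94% and 4.15%, and the 95th percentiles were 7.22% and 7.29%. These levels chose the genes and are given as a description, without a test.

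In both replicates, the counting intervals of the first and last gene in this order overlapped. Neighbours in the order were not compared with each other. The 95% exact (Clopper-Pearson) interval of the share of HC/CH among summed calls ran from 7.86% to 11.1% in Tmprss12 (125 of 1334 calls) and from 7.75% to 9.50% in Traf3ip2 (350 of 4071 calls) in replicate 1. In replicate 2 the intervals were 6.19% to 12.5% (31 of 345 calls) and 7.14% to 11.2% (74 of 821 calls). Such intervals cover counting error only, since calls of the same read pair at neighbouring sites are not independent. Means over the replicates were 10.0% ± 0.623 (SD, n = 2) for Tmprss12, 9.76% ± 0.430 for Kcnn4, 9.55% ± 0.357 for Cntfr, 9.70% ± 0.665 for Unc13d and 9.03% ± 0.0843 for Traf3ip2. Just outside the choice stood Masp2 with 8.94% and 10.8%, beside 8.97% as the lower value of Traf3ip2, the last gene chosen. Efhd2 (8.93% and 9.04%), Slc16a5 (8.82% and 9.05%), Pdyn (8.77% and 11.5%) and Igsf23 (8.76% and 11.6%) came next.

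**Figure D1:**
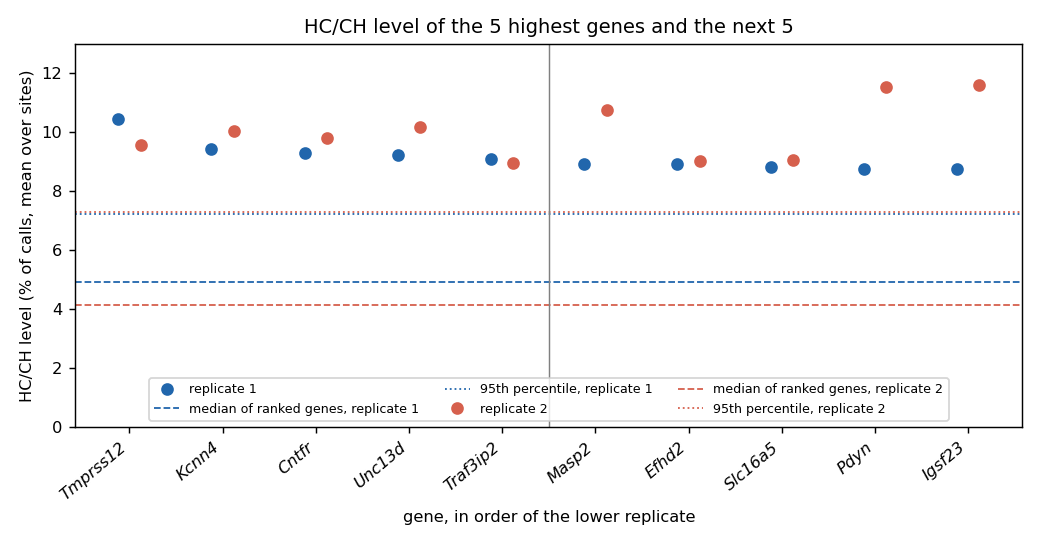
HC/CH level (percentage of calls, mean over CpG sites) of the 5 highest genes and the next 5, in the order of the lower replicate; each point is 1 replicate, dashed lines are the medians and dotted lines the 95th percentiles of the 11242 ranked genes. All 10 genes lie above the 95th percentile in both replicates, and Masp2, Pdyn and Igsf23 exceed the 5 chosen genes in replicate 2.

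The order within each replicate was different. The 5 genes ranked 1, 5, 7, 9 and 13 in replicate 1, and 53, 31, 46, 27 and 103 in replicate 2, in the order Tmprss12, Kcnn4, Cntfr, Unc13d and Traf3ip2. Ranking on the mean of the replicates put them at 6, 9, 12, 10 and 25, and none of the 5 then stayed among the first 5. With a minimum of 20 sites per replicate, which ranks 15888 genes, they stood at 7, 11, 12, 14 and 20.

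Of the other CpG states, HM/MH was above and MM (mC on both strands) below the median of the ranked genes in all 5 genes and both replicates, by margins that varied. In replicate 1, HM/MH lay between 4.97% (Traf3ip2) and 7.02% (Unc13d). Its range in replicate 2 was 3.11% (Cntfr) to 4.64% (Traf3ip2). The medians of all ranked genes were 4.14% and 2.64%. The percentiles of HM/MH ran from 88.9 (Traf3ip2) to 99.96 (Unc13d) in replicate 1 and from 68.2 (Cntfr) to 96.6 (Traf3ip2) in replicate 2. These states share the calls of a site with HC/CH and are not independent of the choice.

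MM was the most frequent state in 4 of the 5 genes in replicate 1, where CC was higher in Kcnn4, and in all 5 in replicate 2. Its level ran from 34.4% (Kcnn4) to 49.9% (Unc13d) in replicate 1 and from 38.1% (Kcnn4) to 54.8% (Unc13d) in replicate 2, below the medians of 52.5% and 57.9%. Its percentiles ran from 9.36 and 9.30 in Kcnn4 to 40.2 and 38.4 in Unc13d. Kcnn4 stood apart by its CC level, 42.0% and 36.9%, at the 85.1st and 84.3rd percentiles. CC in the other 4 genes was 24.2% to 31.0% in replicate 1 and 19.5% to 25.9% in replicate 2, around the medians of 25.7% and 20.8%. Hemimethylation (MC/CM) was lowest in Kcnn4 (7.88% and 9.32%) and below the median in 5 of 5 genes in replicate 1 and in 4 of 5 in replicate 2, where Cntfr had 13.8% against a median of 13.5%.

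**Figure D2:**
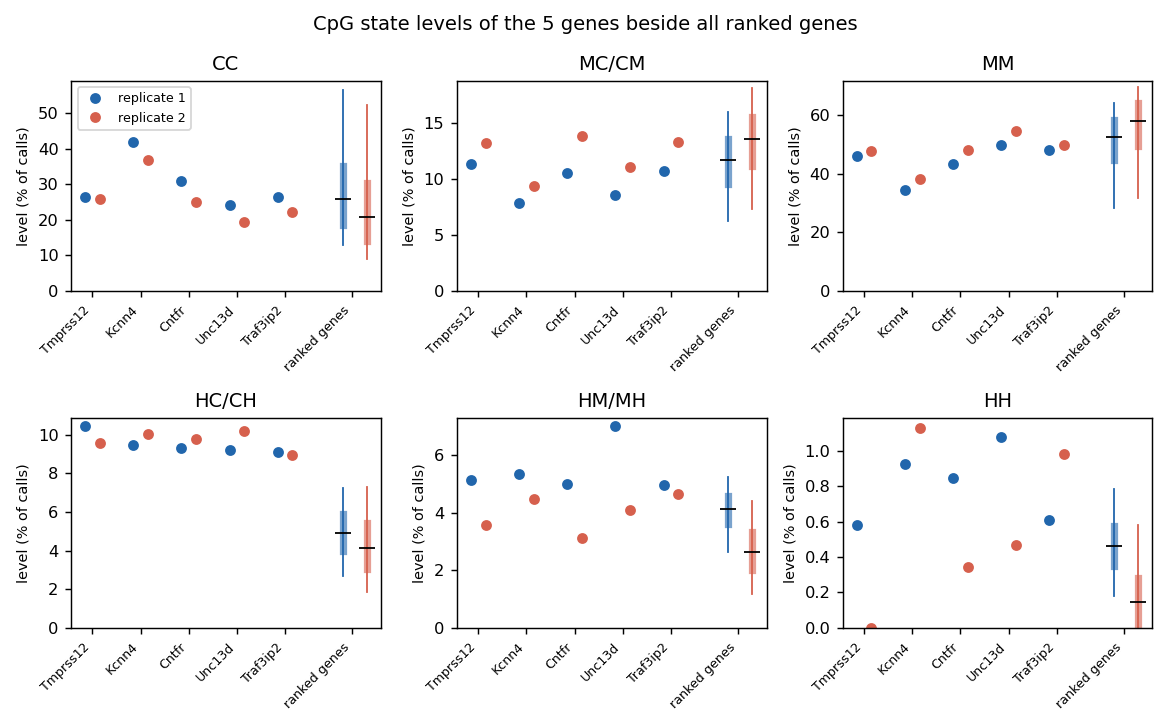
Levels (percentage of calls) of the 6 groups of CpG states in the 5 genes, with 1 point per replicate; at the right, bars show the range between the quartiles of the 11242 ranked genes, thin lines the 5th to 95th percentile and dashes the median. HC/CH lies above the thin line in all 5 genes, MM lies below the median, and HH as called differs between the replicates, as in Unc13d with 1.08% and 0.470%, which were 0.569% and 0.448% after correction.

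HH was rare. As called, it reached 1.08% in Unc13d in replicate 1 and 1.13% in Kcnn4 in replicate 2. It was above the median of the ranked genes (0.462% and 0.146%) in 5 of the 5 genes in replicate 1 and 4 in replicate 2. Tmprss12 had 7 HH calls of 1334 in replicate 1 and 0 of 345 in replicate 2, where a count of 0 allows a share of up to 0.870%. The ratio of HC/CH to HM/MH, as called, was 2.03 and 2.69 in Tmprss12, 1.77 and 2.24 in Kcnn4, 1.85 and 3.16 in Cntfr, 1.83 and 1.93 in Traf3ip2, and 1.32 and 2.48 in Unc13d. Medians over the ranked genes were 1.20 and 1.56. Correction with the spike-ins, added after the data were seen, turned this comparison for 2 genes in replicate 1. There the corrected ratio was 1.89 in Unc13d and 2.45 in Kcnn4, below the corrected median of 2.74, and 3.04 to 3.45 in the other 3 genes. In replicate 2 it was 2.18 (Traf3ip2) to 3.94 (Cntfr), above the corrected median of 1.79.

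HC/CH can also be set against the calls that carry any modification, which leaves CC out. It made up 16.3% and 15.9% of modified calls in Kcnn4, at the 98.3rd and 98.6th percentiles. Tmprss12 had 14.2% and 12.9%, Cntfr 13.5% and 13.1%, Traf3ip2 12.4% and 11.5%, and Unc13d 12.2% and 12.6%. Their percentiles ran from 92.7 (Unc13d) to 96.6 (Tmprss12) in replicate 1 and from 93.6 (Traf3ip2) to 96.2 (Cntfr) in replicate 2. The medians were 6.88% and 5.47%. On this scale Kcnn4, not Tmprss12, was highest in both replicates. The genes were chosen for high HC/CH, so these percentiles are a description.

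The spike-ins allow a correction of the levels for calls made in error. With the rates measured in each replicate itself, corrected HC/CH in the 5 genes was 8.78% to 10.1% in replicate 1 and 9.18% to 10.5% in replicate 2, beside medians of 4.51% and 4.14%. HM/MH lost more by the correction in replicate 1, to between 2.67% and 4.74%, beside a median of 1.62%. The median HH of the ranked genes fell from 0.462% to 0.0121% in replicate 1.

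The genes differ in size and base composition. Tmprss12 (12.2 kb) and Unc13d (15.9 kb) are short beside the median ranked gene of 41.5 kb, as is Kcnn4 (16.4 kb), while Cntfr (39.6 kb) and Traf3ip2 (42.4 kb) lie near it. The GC content was 54.8% in Cntfr and in Unc13d and 54.0% in Kcnn4, at the 96.0th to 97.5th percentiles, but 45.5% in Tmprss12 and 46.8% in Traf3ip2, near the median of 44.9%. Coverage was uneven, with 79.7% of the CpGs of Tmprss12 covered in replicate 1 but 28.8% of those of Cntfr. In replicate 2 it fell to 37.3% and 10.0%. What the genes hold at the uncovered CpGs was not tested.

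Tmprss12 lies at chr15:100280837-100293066 (GRCm38, plus strand) and has 5 exons. Its exons had an HC/CH level of 12.4% (24 sites) in replicate 1 and 12.2% (16 sites) in replicate 2, against 10.3% (81 sites) and 7.37% (34 sites) in its introns. The difference was not called in either replicate by Fisher's exact test on calls (exact p = 0.261 and 0.191, adjusted p = 0.567 and 0.659 over all genes tested). The promoter, taken as 1 kb either side of a transcription start, had 6.81% (28 sites) and 10.9% (11 sites). The upstream flank of 10 kb was mostly CC (75.5% and 70.8%), with HC/CH at 4.98% and 5.48%, and the downstream flank had 8.21% and 11.2%.

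In 1 kb bins counted from its start, the bin at 8 to 9 kb was mostly MM (63.8% and 69.4%) and had HC/CH of 4.17% and 2.86%. The bin at 4 to 5 kb in Tmprss12 had less MM, 33.9% and 35.6%, and HC/CH of 11.2% (22 of 206 calls) and 9.49% (7 of 78 calls). Among bins with at least 5 sites in both replicates, the highest by the lower replicate lay at 11 to 12 kb in the last exon and the intron before it, with 9.63% (13 of 150 calls) and 17.9% (7 of 41 calls). The bin at 9 to 10 kb was higher in replicate 1, with 18.8% (22 of 117 calls), and had 17.1% (4 of 27 calls) in replicate 2, but at only 4 sites there. Outside the gene, the bin at 18 to 19 kb had 7.49% in replicate 1 and 23.5% in replicate 2 (7 of 28 calls), and Spearman's rho between the replicates over the 10 bins of this locus was 0.00606. Such bins share their libraries and differ in depth, so that rho is a description.

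Of 53 sites covered in both replicates in Tmprss12, 12 had HC or CH calls in both. How many would do so by chance was not tested, here or in the other genes. The 3 sites with the highest level in their lower replicate are shown. Each is given with 60 bases of GRCm38 around it, 5′ to 3′ on the gene's strand, the site itself in capitals.
Tmprss12 exon, site chr15:100282307: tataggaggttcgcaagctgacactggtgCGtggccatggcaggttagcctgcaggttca
Tmprss12 exon, site chr15:100285356: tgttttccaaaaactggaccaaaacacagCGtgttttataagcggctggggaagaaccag
Tmprss12 intron, site chr15:100290356: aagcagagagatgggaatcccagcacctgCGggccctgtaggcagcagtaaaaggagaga
At the first of these, 3 of 9 calls were HC or CH in replicate 1 and 2 of 6 in replicate 2. In replicate 1 it had 2 HC and 1 CH, so both strands carried hmC in different molecules. With so few calls, the exact interval of a single site ran from 7.49% to 70.1%.

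Kcnn4 lies at chr7:24370263-24386690 (plus strand) and has 9 exons. Its introns had HC/CH levels of 10.4% (113 sites) and 10.7% (36 sites), and its exons 7.66% (49 sites) and 9.29% (17 sites). The difference was not called (exact p = 0.621 and 0.847, adjusted p = 0.849 and 1). The exons were mostly CC (68.0% and 63.0%), while MM was the most frequent state of the introns (44.7% and 50.2%). The promoter had 9.21% (20 sites) in replicate 1, at the 98.2nd percentile of promoters, and 6.03% (9 sites) in replicate 2.

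CC and HC/CH share the calls of a site, so that a high CC level leaves little room for HC/CH. In Kcnn4 the bin at 7 to 8 kb had CC of 80.4% and 93.6% and HC/CH of 5.67% (8 of 148 calls) and 6.37% (3 of 49 calls). The bin at 14 to 15 kb, with 85.8% and 65.6% CC, had 0.439% (1 of 148 calls) and 3.13% (1 of 25 calls at only 4 sites). Between them, the bin at 12 to 13 kb had 13.8% (22 of 134 calls) and 12.4% (5 of 40 calls) with CC of 40.9% and 47.1%. Of the bins with at least 5 sites in both replicates, the one at 2 to 3 kb was highest by the lower replicate, with 16.2% and 14.4%, but held only 5 sites in each, with 5 of 34 and 6 of 38 calls.

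The highest bin of Kcnn4 is intronic, and the 300 bases of it with the most HC/CH calls, chr7:24372395-24372694, are given 5′ to 3′ with the CpGs that had such a call in either replicate in capitals.
Kcnn4 intron: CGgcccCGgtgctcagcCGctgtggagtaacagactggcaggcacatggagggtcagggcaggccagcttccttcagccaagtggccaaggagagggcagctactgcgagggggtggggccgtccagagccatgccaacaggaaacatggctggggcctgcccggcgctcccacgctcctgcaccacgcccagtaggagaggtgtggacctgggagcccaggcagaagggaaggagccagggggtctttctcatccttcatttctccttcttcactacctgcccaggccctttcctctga
The window holds 9 CpGs, of which 3 were covered in each replicate. They gave 3 HC/CH calls of 15 in replicate 1 and 5 of 22 in replicate 2. Of these calls, 3 of 3 and 4 of 5 were CH, with hmC on the minus strand, which is the template strand of this gene.

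Among 47 shared sites of Kcnn4, 17 had HC or CH in both replicates. The leading sites were as follows.
Kcnn4 exon, site chr7:24382485: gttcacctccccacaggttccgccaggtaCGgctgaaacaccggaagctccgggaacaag
Kcnn4 intron, site chr7:24377055: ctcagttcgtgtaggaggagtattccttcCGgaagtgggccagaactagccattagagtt
Kcnn4 intron, site chr7:24372401: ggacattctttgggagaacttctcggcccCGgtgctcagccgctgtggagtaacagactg
The exonic site had 5 HC/CH calls of 13 in replicate 1 (38.5%, exact interval 13.9% to 68.4%) and 2 of 6 in replicate 2. It showed no MM call in replicate 1, where the other calls were 7 CC and 1 HM.

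Cntfr lies at chr4:41657498-41697089 (minus strand) and has 12 exons. Its introns had 9.70% HC/CH in replicate 1 (220 sites) and 8.03% in replicate 2 (78 sites). Exons had 8.97% (18 sites) in replicate 1, and the exact test gave p = 1 and an adjusted p of 1. In replicate 2 only 7 exonic sites were covered, too few for the test, and 11 of 36 calls there were HC or CH, a level of 31.0%. The promoter, with 3.94% (20 sites) in replicate 1, had the lowest promoter level of the 5 genes and was covered at only 3 sites in replicate 2. Of the 45 CpGs at chr4:41695404-41695703, around an annotated transcription start, 0 were covered in either replicate. The promoter level therefore does not include them.

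By the lower replicate, the highest bin of Cntfr with at least 5 sites in both lay at 27 to 28 kb, with 10.7% (10 of 125 calls) and 13.05% (4 of 28 calls). The bin at 32 to 33 kb had 11.6% (14 of 110 calls) and 16.1% (4 of 24 calls), with 4 sites in replicate 2. At 3 to 4 kb, a bin with CC of 86.2% and 94.2% had 1 HC/CH call of 65 in replicate 1 and 1 of 30 in replicate 2. Upstream, the bin from 7 to 6 kb before the start had 10.6% and 14.9%, a level like those inside the gene. This bin lies within Il11ra1, a neighbouring protein-coding gene that also overlaps the upstream flank. The upstream flank as a whole had 8.32% (56 sites) and 19.6% (13 sites), and the downstream flank 5.86% (82 sites) and 4.71% (30 sites). In replicate 2 the upstream flank was at the 99.99th percentile, with 14 of 77 calls.

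Cntfr had 74 shared sites, of which 23 had HC or CH in both replicates, and its 3 leading sites were all intronic.
Cntfr intron, site chr4:41662680: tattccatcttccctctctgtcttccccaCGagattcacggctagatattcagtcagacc
Cntfr intron, site chr4:41669868: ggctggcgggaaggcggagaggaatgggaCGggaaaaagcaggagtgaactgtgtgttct
Cntfr intron, site chr4:41661119: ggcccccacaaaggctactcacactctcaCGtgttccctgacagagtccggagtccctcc
The first had 3 CH calls of 6 in replicate 1 and 2 CH calls of 7 in replicate 2, all with hmC on the minus strand. The second, which lies in the highest bin, had 2 of 10 and 2 of 7 calls.

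Traf3ip2 lies at chr10:39612934-39655307 (plus strand) and has 9 exons. It held the most sites of the 5 genes and had the smallest difference between the replicates. Its introns had 9.31% (342 sites) and 8.79% (114 sites). Exons had 7.77% (32 sites) and 9.32% (10 sites), so that the direction of the exon-intron difference was opposite in the 2 replicates, and neither was called (exact p = 0.186 and 0.814, adjusted p = 0.472 and 1). An antisense noncoding gene, E130307A14Rik, overlaps 79.99% of the span from the other strand. CpG states belong to both strands, so that HC/CH in the overlap cannot be assigned to either gene.

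Among bins with at least 5 sites in both replicates, the highest of Traf3ip2 lay at 16 to 17 kb, with 15.7% (16 of 122 calls) and 15.6% (5 of 35 calls). It was mostly CC (62.3% and 50.7%), with MM of 12.8% and 23.7%. The bin at 14 to 15 kb, with 4 sites in each replicate, was higher, at 18.5% (9 of 48 calls) and 18.3% (4 of 22 calls). At 19 to 20 kb the HC/CH level was 16.05% and 9.88%, and at 20 to 21 kb it was 14.8% and 10.6%. The bin at 32 to 33 kb, the lowest in replicate 1 among those with at least 5 sites in both, had 0 of 102 calls in replicate 1 and 1 of 30 in replicate 2, with MM of 78.4% and 56.0%. The count of 0 allows a share of up to 2.94%. The first 1 kb of the gene, with CC of 85.1% and 70.0%, still had HC/CH of 7.41% (14 of 186 calls) and 12.5% (4 of 34 calls). Promoters of the ranked genes had a median HC/CH level of 2.31% in replicate 1.

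The 300 bases of the highest Traf3ip2 bin with the most HC/CH calls, chr10:39629284-39629583, are intronic, and all 5 of their CpGs had at least 1 such call.
Traf3ip2 intron: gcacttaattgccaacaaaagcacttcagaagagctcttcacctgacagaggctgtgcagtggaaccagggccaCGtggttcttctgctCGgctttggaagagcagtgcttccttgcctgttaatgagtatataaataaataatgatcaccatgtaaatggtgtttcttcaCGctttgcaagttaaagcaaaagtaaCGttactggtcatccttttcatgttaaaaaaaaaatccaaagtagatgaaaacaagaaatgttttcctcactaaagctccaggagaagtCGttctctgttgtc
In contrast to the Kcnn4 window, this one is poor in GC (40.7% against 64.3%). It gave 8 HC/CH calls of 42 in replicate 1 (2 HC and 6 CH) and 3 of 25 in replicate 2 (2 HC and 1 CH).

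Traf3ip2 had 117 shared sites, of which 32 had HC or CH in both replicates, and its leading sites were intronic.
Traf3ip2 intron, site chr10:39633264: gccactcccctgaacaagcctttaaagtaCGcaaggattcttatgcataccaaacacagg
Traf3ip2 intron, site chr10:39627461: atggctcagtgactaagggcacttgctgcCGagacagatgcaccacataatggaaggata
Traf3ip2 intron, site chr10:39640027: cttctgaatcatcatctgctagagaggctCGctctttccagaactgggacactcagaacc
The first was the most deeply covered of the leading sites, with 4 HC/CH calls of 12 in replicate 1 (exact interval 9.92% to 65.1%) and 4 of 11 in replicate 2 (10.9% to 69.2%). They were 1 HC and 3 CH in replicate 1 and 4 CH in replicate 2.

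Unc13d lies at chr11:116062095-116077961 (minus strand) and has 35 exons. Of the 5 genes, among those tested in each replicate, it had the largest difference between exons and introns, with 11.9% (70 sites) and 12.9% (31 sites) in exons and 7.70% (103 sites) and 7.78% (37 sites) in introns. In calls, 59 of 496 exonic and 69 of 884 intronic calls were HC or CH in replicate 1, and 24 of 175 and 19 of 246 in replicate 2. Fisher's exact test gave p = 0.0153 and 0.0509, which did not pass the threshold after adjustment over all genes (adjusted p = 0.112 and 0.398). With 1 vote per site, whether or not it had an HC/CH call, the exon-intron difference averaged 1.11 percentage points of sites and the smaller adjusted p was 0.805. The exons also had higher HM/MH, 8.57% against 5.45% in replicate 1 and 6.16% against 2.48% in replicate 2.

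In Unc13d, HC/CH at 2 to 3 kb was 24.1% (12 of 60 calls) and 28.0% (6 of 22 calls at only 3 sites), at 12 to 13 kb it was 14.3% (16 of 106 calls) and 30% (10 of 38 calls), and at 14 to 15 kb it was 16.7% (31 of 178 calls) and 14.8% (7 of 43 calls), the highest by the lower replicate among bins with at least 5 sites in both. The bin at 15 to 16 kb, which runs past the end of the gene, had 12.8% (9 of 73 calls) and 2.78% (1 of 32 calls). Between 8 and 9 kb, where MM reached 69.3% and 74.9%, it was 5.83% (6 of 125 calls) and 1.82% (1 of 73 calls). Upstream, at 10 to 9 kb before the start, the bin was almost wholly CC (97.3% and 94.7%) and had 5 HC/CH calls of 488 and 0 of 143, which allows a share of up to 2.10%. The rank order of the 18 bins was closest between the replicates at this locus, with a rho of 0.605.

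In Unc13d, 16 of 55 shared sites had HC or CH in both replicates. The 2 leading sites that lie outside every annotated UTR are shown.
Unc13d promoter, site chr11:116076466: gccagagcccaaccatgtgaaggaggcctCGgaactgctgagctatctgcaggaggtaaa
Unc13d exon, site chr11:116075718: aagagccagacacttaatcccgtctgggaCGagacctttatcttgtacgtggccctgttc
The first lies 1.495 kb inside the gene and counts as promoter because of a later transcription start. It had 4 HC/CH calls of 9 in replicate 1 (3 HC and 1 CH) and 2 of 6 in replicate 2 (2 HC), and the second had 2 of 6 and 3 of 7. The site with the highest lower level, in an exon at 12.483 kb, had 3 of 8 and 3 of 6 and overlaps an annotated UTR.

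Over the 5 genes, 0 of 9 exon-intron tests were called at an adjusted p of 0.05, and 1 had an unadjusted p below 0.05, which 22.5% of all genes had in replicate 1 and 12.6% in replicate 2. Among all genes tested, 8.49% of 10809 were called in replicate 1 and 1.32% of 8605 in replicate 2. In replicate 1, exons were higher in 6.38% of the genes tested and introns in 2.11%, and in replicate 2 in 1.23% and 0.093%. These tests were run on calls, and calls of the same read pair at neighbouring sites are not independent, so that the p-values cover counting error only. Intronic levels lay at the 93.6th (Unc13d) to the 99.8th percentile (Kcnn4) of introns in replicate 1 and at the 92.4th (Tmprss12) to the 99.5th (Kcnn4) in replicate 2. Exonic levels lay at the 81.8th (Kcnn4) to the 99.3rd percentile (Tmprss12) of exons in replicate 1 and, in the 4 genes with enough sites, at the 91.2nd (Kcnn4) to the 98.4th (Unc13d) in replicate 2. Introns and exons are parts of the span whose level chose the genes, so these percentiles are a description.

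**Figure D3:**
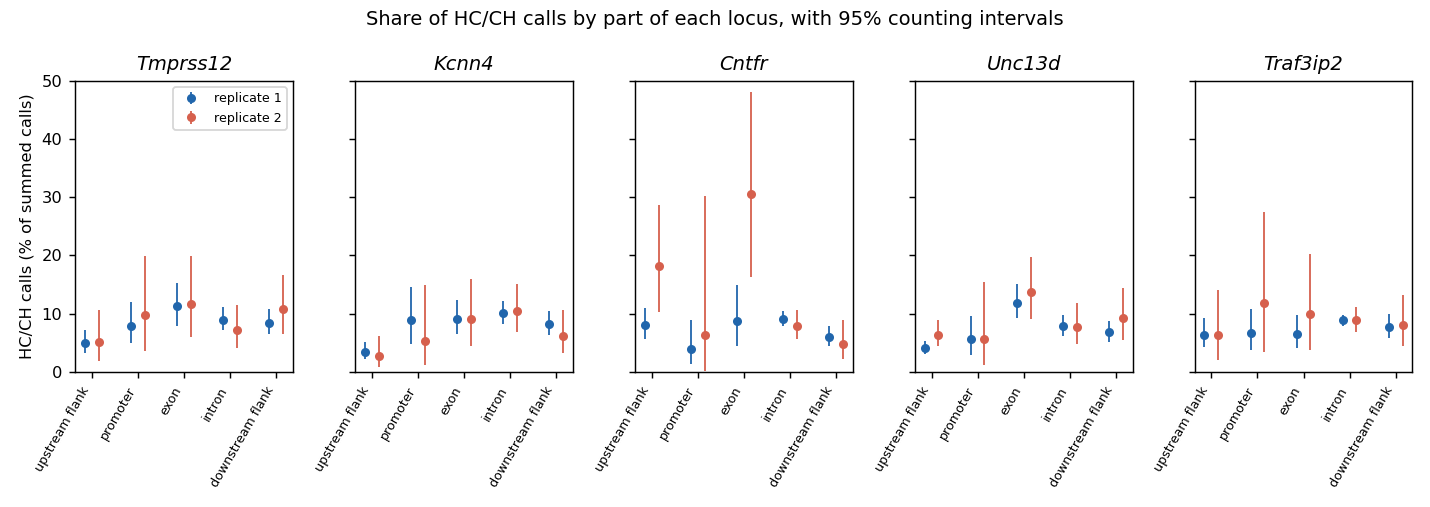
Share of HC/CH among summed calls in the upstream flank (10 kb), promoter, exons, introns and downstream flank of each of the 5 genes, with exact 95% counting intervals, 1 point per replicate. Intervals of exons and introns overlap within each gene and replicate except in Cntfr in replicate 2, where the exon point rests on 36 calls.

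The plus and minus strands were also compared, since HC and CH say which strand held hmC. Traf3ip2 had 192 HC and 158 CH calls in replicate 1 but 28 HC and 46 CH calls in replicate 2, with exact binomial p = 0.0776 and 0.0474 (adjusted p = 0.673 and 0.765). Kcnn4 had 55 HC and 83 CH calls in replicate 1 and 15 HC and 19 CH calls in replicate 2, with exact binomial p = 0.0212 and 0.608 (adjusted p = 0.493 and 1). In Unc13d the counts were equal in replicate 1, at 69 each. Of the 10 tests in the 5 genes 0 were called, as were 0% of the 11242 genes in replicate 1 and 0% of 11241 in replicate 2. An unadjusted p below 0.05 was found in 2 of the 10 tests, and in 8.32% and 6.40% of all genes.

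The HC/CH level extended past the genes in part. Flanks of 10 kb had lower levels than the span in all 5 genes and both replicates, with 5.61% (Kcnn4) to 6.91% (Tmprss12) in replicate 1 and 4.56% (Kcnn4) to 9.22% (Cntfr) in replicate 2. The medians of such flanks over the ranked genes were 4.96% and 4.31%, and all 5 genes were above them in both replicates. The difference between span and flank was 2.39 to 3.84 percentage points in replicate 1 and 0.531 to 5.50 in replicate 2. It is biased by the choice of genes with a high span and gets no test. For Unc13d it turned to -1.03 on average with flanks of 5 kb (1.44 and -3.50 in the replicates, with 82 and 41 flanking sites). It was -4.06 (0.757 and -8.87) when sites in other protein-coding genes or within 1 kb of their starts were left out. This left 14 and 4 sites. The other 4 genes stayed positive under both. Leaving out such genes removed no flanking site in Tmprss12, Kcnn4 and Traf3ip2, and the antisense noncoding genes beside Traf3ip2 were kept. In Cntfr it lowered the flank level from 6.86% and 9.22% to 6.35% (87 sites) and 4.71% (30 sites).

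Protein-coding genes lie within 10 kb of only 2 of the 5. Il11ra1, which encodes an interleukin-11 receptor subunit, begins 2900 bp from Cntfr and had HC/CH levels of 4.68% and 2.69%, below the medians of 4.94% and 4.15%. Wbp2, 612 bp upstream of Unc13d, had 5.52% and 8.49%, and Unk, 881 bp downstream, had 6.60% and 5.49%. Beside Traf3ip2, the antisense gene Gm16365, which overlaps its first 749 bp, had 7.61% (483 sites) and 9.28% (178 sites), and E130307A14Rik had 6.95% and 6.92%.

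**Figure D4:**
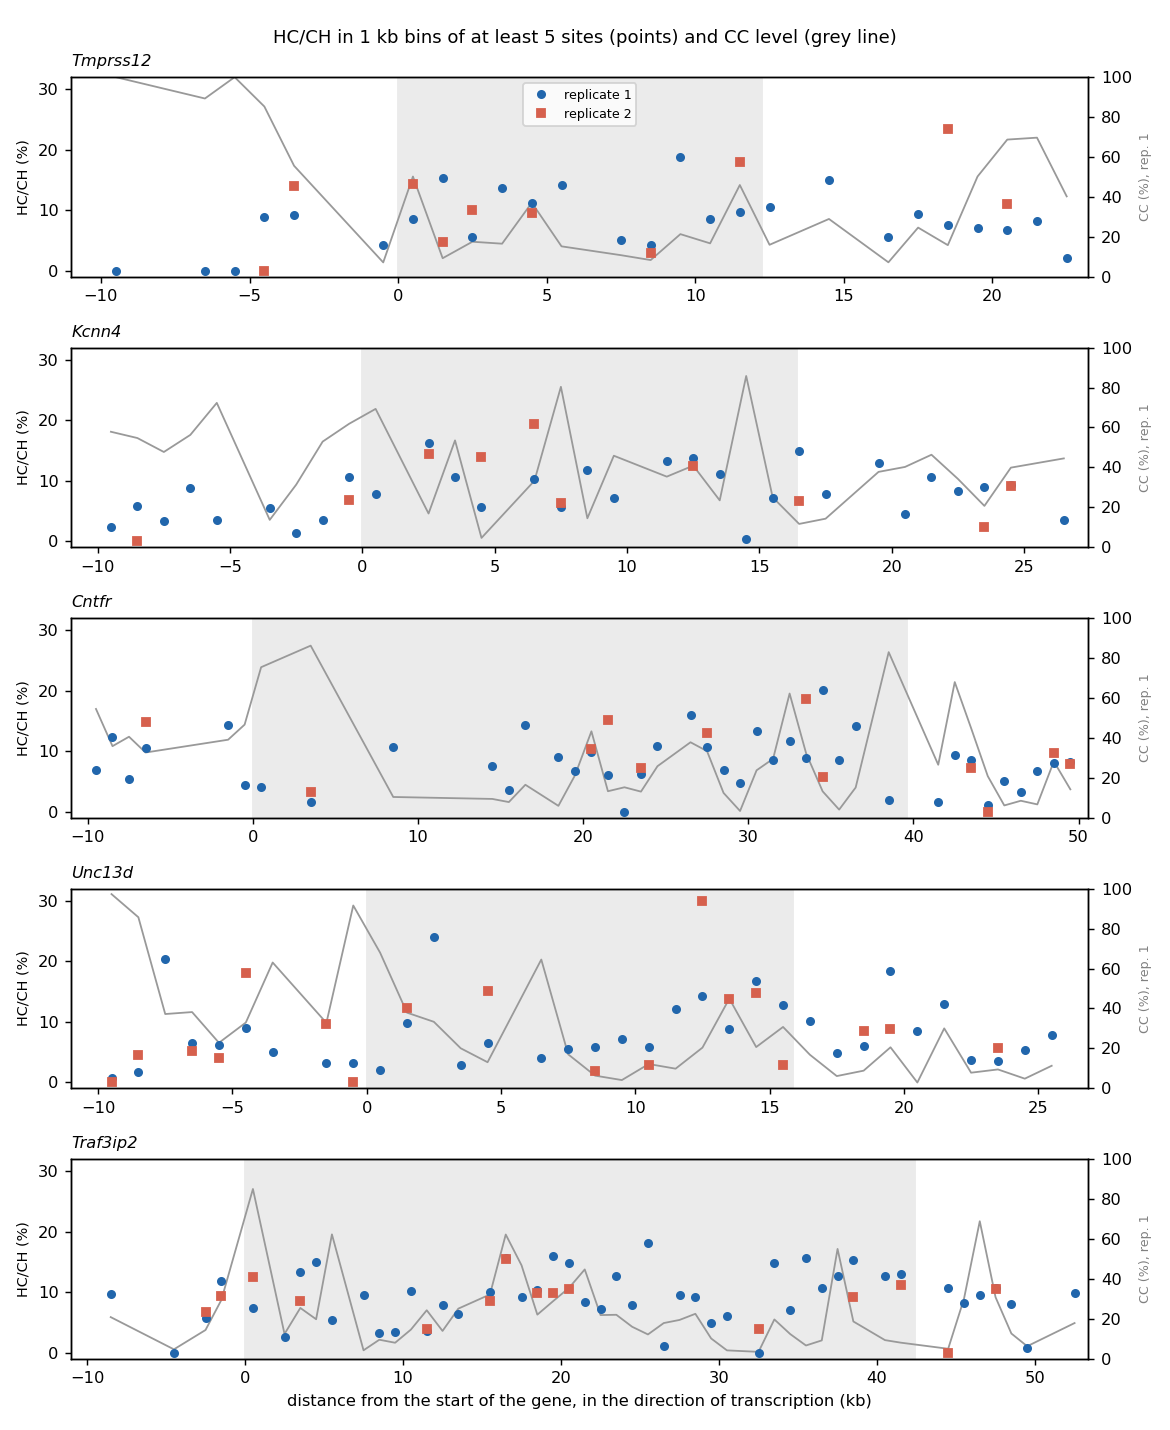
HC/CH level (points, left axis, percent) of 1 kb bins with at least 5 sites in the replicate, along each gene (shaded) and 10 kb on either side, against the distance from the gene's start in kb; the grey line joins the CC levels of the bins in replicate 1 (right axis, percent). Bins near a CC level of 100%, such as those far upstream of Tmprss12 and Unc13d, have HC/CH near 0, and inside the genes high bins are spread over the span rather than gathered at 1 place.

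HC/CH was spread over many sites. Between 44.9% (Unc13d) and 57.4% (Tmprss12) of the covered sites had at least 1 HC/CH call in replicate 1, and between 33.3% (Tmprss12) and 48.1% (Kcnn4) in replicate 2. No site had more than 5 HC/CH calls. The tenth of sites with the most such calls held 35.2% to 42.0% of them in replicate 1 and 37.8% to 45.7% in replicate 2. These figures depend on depth and were not set against other genes, so they do not set the 5 apart. The place of the highest bin depended on the data used. The 5 given as highest above were so among bins with at least 5 sites in both replicates, and a minimum of 3 sites kept only 1 of them. Each replicate alone put only 1 of the 5 at the same place, as did bins of 2 kb.

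The MM level of a bin can be taken from 1 replicate and its HC/CH level from the other, so that the values share no calls. This comparison was chosen after the data were examined. Over the 37 bins of 1 kb in the 5 spans with at least 5 sites in each replicate, median HC/CH in replicate 2 was 9.43% in the 4 bins with MM under 20% in replicate 1, 12.4% in the 13 with 20 to 40%, 9.96% in the 14 with 40 to 60% and 3.43% in the 6 with 60 to 80%. The other ranked genes had medians of 2.08%, 7.44%, 4.46% and 2.78% in the same classes. Since the 5 genes were chosen for high HC/CH in both replicates, their higher medians are a description. With the replicates exchanged, the 5 genes had 6.54%, 11.2%, 9.79% and 13.1%, and the other genes 1.89%, 7.22%, 6.12% and 4.32%. In the other genes the class of 20 to 40% was highest in both directions. In the 5 genes it was highest only with MM from replicate 1, and the classes of 4 to 15 bins are small.

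**Figure D5:**
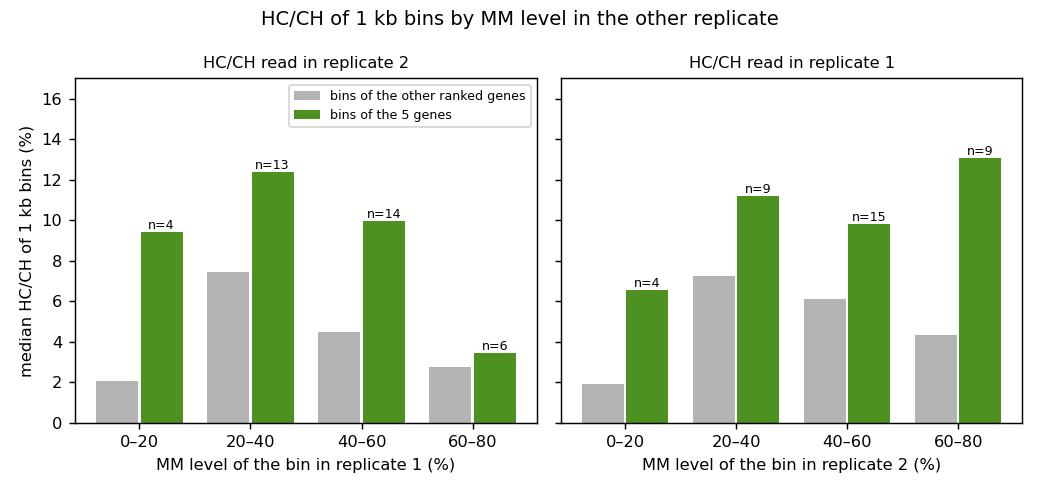
Median HC/CH level (percent) of 1 kb bins by the MM level of the same bin in the other replicate, for bins of the 5 genes (green, with their number) and of the other ranked genes (grey); the class above 80% is left out because it holds no bin of the 5 genes. The green bars are above the grey, which the choice of genes with high HC/CH in both replicates favours, and the grey bars are highest at 20 to 40% MM.

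By the distance over the 12 values of 6 groups of states in 2 replicates, each in units of its SD over the ranked genes, the gene most like Cntfr was Kdm1a (distance 1.65), which encodes a histone demethylase, with HC/CH of 8.502% and 7.51%. Rassf3 was nearest to Traf3ip2 (1.81), Mmgt2 to Tmprss12 (2.34), Evpl to Kcnn4 (2.40) and Lrp1 to Unc13d (2.70). The median distance from each of the 5 to all ranked genes was 5.98 to 8.55. No 2 of the 5 were nearest to each other.

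Genes that act with the 5, or belong to their families, did not share the high level as a group. Of 60 such genes listed, 45 were ranked and 21 had HC/CH above the median of all genes in both replicates, where 39.98% of all ranked genes did.

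Of the proteases in the family of Tmprss12, Hpn (hepsin) was highest, with 7.44% and 9.83%, the second value above that of Tmprss12 in replicate 2. Tmprss3 (7.13% and 4.78%), St14, which encodes matriptase (6.64% and 5.44%), Tmprss6 (6.25% and 4.43%), Tmprss9 (5.77% and 7.25%) and Tmprss13 (5.48% and 5.84%) were also above both medians. Tmprss2 (3.096% and 2.08%), Tmprss4 (3.48% and 3.21%), Tmprss7 (3.67% and 3.16%), Tmprss11a (3.74% and 1.33%), Tmprss15 (2.80% and 2.14%) and Corin (3.26% and 2.66%) were below them, and Prss55 was not ranked. The other potassium channels showed a similar range. Kcnn1 had 7.54% and 5.76% and Kcnn3 6.53% and 5.38%, while Kcnn2 had 2.48% and 2.11% and Kcnma1 3.33% and 2.42%. Mtmr6, which encodes a lipid phosphatase that inhibits the channel of Kcnn4, had 4.35% and 3.75%. The kinase gene Nme2 had too few sites to be ranked.

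Of the 8 ranked partners of Cntfr, 5 were above the median in both replicates. Lifr had 7.09% and 6.63% and Il6st, which encodes gp130, had 6.99% and 5.77%, the subunits that signal with the product of Cntfr. Stat3, the transcription factor they activate, had 7.27% and 6.92%. Tyk2 had 6.43% and 4.73% and Il6ra 6.19% and 6.89%, while the kinase genes Jak1 (4.505% and 4.10%) and Jak2 (4.75% and 4.07%) were below both medians, as was Il11ra1 with the values given above. The ligand genes Cntf and Clcf1 and the feedback inhibitor Socs3 were not ranked.

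Around Traf3ip2, the interleukin-17 receptor genes Il17rb (6.98% and 6.04%), Il17rd (6.62% and 6.40%), Il17ra (5.50% and 4.15%) and Il17rc (5.00% and 10.1%) were at or above the medians, Il17rc with 148 and 59 sites. The ubiquitin ligase gene Traf3 had 5.58% and 4.90%. Ikbkb, which encodes a kinase of the NF-kappaB pathway, had 6.08% and 4.21%, and Nfkbiz, a target of interleukin-17 signalling, had 6.15% and 4.46%. Traf2 (4.07% and 3.26%), Traf5 (4.54% and 3.43%), Traf6 (4.81% and 4.36%), Map3k7 (4.59% and 4.16%) and Usp25 (4.65% and 4.26%) were below the median in replicate 1, and Il17re and Ikbkg were not ranked. Of the ranked genes listed with Unc13d, only Rab27a, which encodes the GTPase that binds Munc13-4 on granules, was above both medians, with 7.32% and 6.85%. Its relative Rab27b had 2.80% and 1.60%. Unc13a (4.49% and 4.18%), Unc13b (3.76% and 3.17%), Unc13c (2.81% and 2.11%), Stx11 (4.13% and 4.04%), Snap23 (4.76% and 3.93%) and Lyst (4.49% and 3.99%) were below the median in replicate 1, while Stxbp2, Vamp8 and Prf1 were not ranked.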

How the data were processed

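SCoTCH-seq was run on 2 passages of E14 mESCs, 2 replicates of 1 condition, which permits no test between samples. Read pairs were filtered with Cutadapt (version 4.6, per the labels), aligned to mm10 and freed of duplicates with Picard (version 3.1.1). The authors deposited, per replicate and CpG site, the counts of read pairs in each of 9 CpG states, the depth, and the percent of calls in each state, uncorrected, at sites with at least 5 calls outside blacklisted regions. All 18595407 positions fell on the C of a CpG of GRCm38.p6. Sites in the middle of the depth distribution held 7 to 13 calls in replicate 1 and 5 to 7 in replicate 2, so single sites are coarse.

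Levels are means over sites of the percentage of calls, computed here with SciPy 1.17.1, pandas 2.3.3 and NumPy 2.4.6 under Python 3.11.15 (plots by Matplotlib 3.10.9, sequences by pysam 0.24.0), with genes from GENCODE vM21. A site within 1 kb of a transcription start of the gene counted as promoter, then exon, then intron. Exon-intron tests needed at least 10 sites of each and used Fisher's exact test, and HC was set against CH by an exact binomial test, both two-sided, per replicate, with Benjamini-Hochberg adjustment over all genes tested at a threshold of 0.05. Scripts were tested on simulated data. Spike-in corrections used duplex sites with at least 1000 calls. These held 15 CC sites, 1 or 2 sites of each other state and 0 of MH, for which HM was used. The designed state of a site was taken as the state called most often there. Alternatives covered weighting, coverage, shared sites, correction, bins, flanks, ranking and leaving out a replicate. The 5 genes and the lists of related genes were chosen with earlier results of these data known. Genes named are the 5, the next 5 by rank, the nearest in profile, those within 10 kb and the listed partners; Vamp7 was not used here, and some listed genes that were not ranked are not reported here. Sites named are those covered in both replicates with the highest level in the lower replicate, at most 3 a gene.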

Additional observations from a re-analysis of the deposited data

How the results depend on the processing

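No paired analysis was possible because the series holds 1 group of 2 replicates. The exon-intron and HC against CH tests called 0 of the genes they could test under every alternative run. The lowest adjusted p was 0.0631, by Fisher's exact test for Unc13d with promoters of 500 bp. Exons and introns could be tested in only 3 genes with shared sites, and in 4 at a coverage minimum of 10 or without replicate 1. The direction turned in 3 of 26 exon-intron and 5 of 20 HC against CH alternatives. Among them was Kcnn4 at that minimum (5.15 points in replicate 1 alone). Its main run gave -2.72 in replicate 1 and -2.07 on average over both replicates. Of the 5 genes, 3 stayed among the 5 highest with the share of summed calls, 2 with only sites covered in both replicates (Tmprss12 then ranked 70 and Traf3ip2 84, and Kcnn4, with 47 such sites, fell under the minimum of 50), 4 under either correction, and 0 with at least 20 sites, with the mean of the replicates or with either replicate left out (0 to 0). Leaving out replicate 2 also widened the ranked pool to 16427 genes, and among the 11242 genes replicate 1 alone kept 2 of the 5, at ranks 1 and 5. The highest bin kept its place in 2 of 5 genes with summed calls and with bins of 500 bp, in 1 with shared sites, bins of 2 kb or at least 3 sites per bin, in 4 with correction, and in 1 to 1 with a replicate left out.

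The median HC/CH level of the 5 genes, 9.70%, was 9.18% with summed calls and 10.4% with shared sites, and 9.30% to 9.81% with a replicate left out. Median CC was 24.6% with shared sites and 24.9% to 26.4% with a replicate left out, against 26.2%. Correction moved median HM/MH from 4.81% to 3.44% (same replicate) or 3.42% (both summed), MM from 46.9% to 49.4% or 49.5%, and HH from 0.773% to 0.497% with both summed, and HH was 0.470% to 0.844% with a replicate left out. The span minus flank difference stayed positive in the median, between 0.659 and 3.39 points. A coverage minimum of 10 left 1 to 5 sites per gene in replicate 2, so no level or bin of both replicates was given, and the HC against CH tests run at that minimum say nothing about replicate 2. In replicate 1 alone, an alternative chosen after seeing the data, it gave a median HC/CH of 8.81%, and the highest bin kept its place in 1 gene. The causes were not tested. Depth limits single sites and bins, most of all in replicate 2.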
